A study of Mus musculus with 6 samples.

Results

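The genes described here encode the machinery of motile cilia: the transcription factors that switch on the ciliary programme, the axonemal dynein motors, and the spokes, central apparatus and assembly factors that go with them. They were given as a list of 38 names, and each had a probe set whose platform annotation held exactly 1 symbol, so all 38 were measured among 19935 genes. RNA of whole lung was compared between wild-type mice (3 samples) and Scnn1b-Transgenic mice, abbreviated Scnn1b-Tg (3 samples), all of the C57BL/6 background. The study looked for genes with a role in emphysema. Each sample was hybridised to 1 Affymetrix array. The labels give no age, sex, batch or transgene promoter. They also do not state that each sample is a different mouse, and the p-values therefore speak to the spread of these 6 arrays, part of which may be technical. The Scnn1b-Tg line is generally known to carry its transgene under a club cell promoter, that is, in the secretory rather than the ciliated cells of the airway.

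Motile cilia beat on ciliated cells of the airway surface and carry mucus out of the lung. The Scnn1b transgene raises sodium uptake across that surface and is known for depleting the airway liquid in which cilia beat, which is why ciliary genes are described here for this model. A motile cilium is built on an axoneme, a ring of paired microtubules around a central pair. Outer and inner dynein arms make the microtubules slide, radial spokes and the nexin-dynein regulatory complex control the sliding, and mutations in many of these genes cause primary ciliary dyskinesia. FOXJ1 and RFX factors turn on the genes of the axoneme, and MCIDAS acts before them when a cell commits to making many cilia. Ciliated cells are a small part of whole lung, so in such RNA fewer ciliated cells and less ciliary RNA per cell cannot be told apart.

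RFX factors bind the X-box, and because the factors and their possible targets were measured on the same arrays, promoters of a few members are shown. RefSeq promoters (GRCm38.p6) were at hand for 32 members, and the 250 bases before each start were searched on both strands. The X-box core GTTGCC (reverse complement GGCAAC) occurred in 13 of 32 members (40.6%) and in 11.8% of 27025 genes. The longer X-box, which can contain this core, occurred in 4 of 32 (12.5%) and in 3.67% of all. The forkhead motif TGTTTAC (reverse complement GTAAACA) occurred in 1 of 32, Ak7 (3.12%), and in 3.54% of all. A match describes letters, not a bound site. Below are the 120 bases before the start, 5′ to 3′ on the gene's strand, of the 4 members with the longer X-box (for Tekt2, at 1 of its starts) and of Spag6, the member with the smallest p-value. Capitals mark the X-box, or in Spag6 the core.
Hydin (chr8:110266857-110266976, plus strand): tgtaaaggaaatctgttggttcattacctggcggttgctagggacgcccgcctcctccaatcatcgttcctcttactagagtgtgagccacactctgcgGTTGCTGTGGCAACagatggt
Dynlrb2 (chr8:116504895-116505014, plus strand): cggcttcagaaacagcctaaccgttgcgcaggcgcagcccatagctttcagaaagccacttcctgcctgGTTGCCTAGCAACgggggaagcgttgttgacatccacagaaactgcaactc
Spag16 (chr1:69826850-69826969, plus strand): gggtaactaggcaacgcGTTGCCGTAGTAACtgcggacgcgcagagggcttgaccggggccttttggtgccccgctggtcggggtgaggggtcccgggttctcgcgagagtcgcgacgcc
Tekt2 (chr4:126325689-126325808, minus strand): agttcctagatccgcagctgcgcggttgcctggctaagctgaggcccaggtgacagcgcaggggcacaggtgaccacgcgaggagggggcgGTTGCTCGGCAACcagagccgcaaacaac
Spag6 (chr2:18698902-18699021, plus strand): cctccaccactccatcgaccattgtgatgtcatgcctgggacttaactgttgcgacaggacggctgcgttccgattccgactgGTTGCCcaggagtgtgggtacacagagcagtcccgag
In these windows the X-box lay 8 to 21 bases before the start of Hydin, 39 to 51 before that of Dynlrb2, 90 to 103 before that of Spag16 and 17 to 29 before that of Tekt2. The same X-box of Tekt2 lay 59 to 71 bases before another of its starts. The 13 members with the core had a median log2 fold change of 0.040 (10 higher), against 0.020 (12 higher) for the 19 members with a promoter entry but no core. Their ranges overlapped almost wholly, from -0.10 to 0.15 with the core and from -0.12 to 0.19 without it. The difference between these medians was not tested.

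The labels were checked on Scnn1b, which went from an intensity of 139.7 ± 31.9 (SD, n = 3) in wild type to 1422 ± 98.3 in Scnn1b-Tg. Lung markers were bright on every array: the surfactant gene Sftpc lay between 7241 and 8534, the alveolar type 1 marker Ager between 2160 and 2384, and the club cell gene Scgb1a1 between 3379 and 4579. Array medians ran from 47.6 to 48.5 and array minimums from 18.3 to 18.6. Of the 38 ciliary genes, 7 were among the dimmest 33.3% of all genes (mean intensity up to 35.57), namely Dnah7a, Dnah7b, Spag6, Spag16, Spag17, Tekt2 and Lrrc6. Counted from the dimmest gene, the median rank of the 38 was 44.1%, so many of the others were not bright either.

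The motile cilia genes showed no called difference between Scnn1b-Tg and wild-type lung. With limma and Benjamini-Hochberg adjustment over all genes, 0 of 38 members passed an adjusted p of 0.05, where 0.00502% of all genes did (1 gene, Scnn1b). At an unadjusted p under 0.05 there was 1 higher member, Spag6 (2.63% of members against 3.96% of all genes), and 0 lower (against 2.05%). The 3 Scnn1b-Tg arrays were above the 3 wild-type ones for 2 members, Spag6 and Dnah8 (5.26%, against 6.26% of all genes), and below them for 0 (against 4.41%). These shares were near or under those of all genes.

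The estimates were small as well as uncalled. Log2 fold changes ran from -0.21 for Tppp3 to 0.19 for Dnah12, with a median of 0.024 (25 members higher, 13 lower), beside a median of 0.0052 over all genes. For 29 of 38 members the change was under 0.1 in size (76.3%, against 79.1% of all genes). The difference between genotypes was smaller than the range of the 3 arrays within each genotype for 31 members (81.6%, against 74.1% of all genes). The 95% intervals of single genes, from the moderated spread of limma and not adjusted for their number, lay between -0.50 and 0.51 over all members, that is, between 1.41-fold lower and 1.43-fold higher in array intensity. If a constant had been added to the deposited values these changes would be understated. With 16 subtracted from every value, the intervals widened to between -0.52 and 0.67, and the fold changes to between -0.23 and 0.31.

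**Figure D1:**
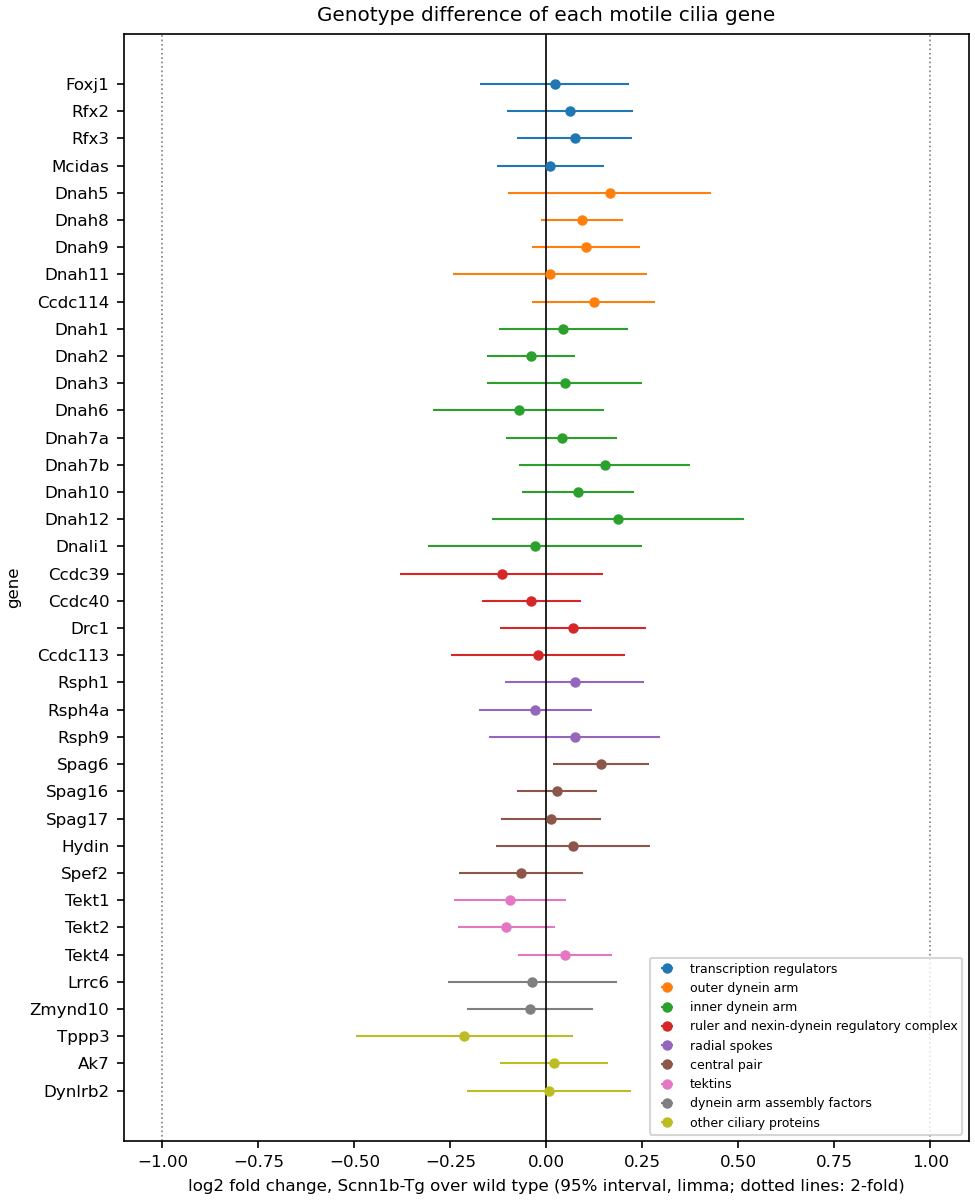
Log2 fold change of each of the 38 genes in Scnn1b-Tg over wild type (points, coloured by role) with 95% intervals from limma (bars), and dotted lines at a change of 1. Every interval lies inside the dotted lines, and only that of Spag6 leaves out 0.

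No transcription regulator of the set passed the test. Foxj1, the regulator of motile ciliogenesis, had intensities of 59.3, 67.4 and 60.2 on the wild-type arrays and 57.2, 64.3 and 68.4 on the Scnn1b-Tg arrays. The ranges overlapped almost wholly, with both the lowest and the highest value in Scnn1b-Tg. Its log2 fold change was 0.022 ± 0.082 (SE), with a 95% interval from -0.17 to 0.22 and an adjusted p of 0.995 in limma. Rfx2 (0.060 ± 0.069) and Rfx3 (0.074 ± 0.063) bind X-box motifs, and Mcidas (0.011 ± 0.058) starts centriole amplification. All 4 regulators had overlapping groups, and all 4 estimates were above 0 by less than 0.1, although the sign of Foxj1 and Mcidas turned with quantile normalization and median centring. Rfx3 was close to constant in Scnn1b-Tg, at 74.8, 75.1 and 75.4, within the wild-type range of 66.5 to 77.8.

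All 5 outer dynein arm genes had positive estimates, with a median log2 fold change of 0.10, and none passed the test. Dnah5, a heavy chain whose loss is a frequent cause of primary ciliary dyskinesia, was at 51.5, 64.8 and 61.1 in wild type and 61.3, 62.2 and 75.4 in Scnn1b-Tg. The lowest array was wild type replicate 1 and the highest Scnn1b-Tg replicate 3, and the log2 fold change of 0.16 ± 0.11 (SE; adjusted p = 0.916) came to 0.068 without the former and 0.069 without the latter, and reached 0.23 without wild type replicate 2. Dnah8, a heavy chain best known from sperm tails, was at 35.2, 33.5 and 34.98 in wild type and 36.7, 38.03 and 36.01 in Scnn1b-Tg. Its arrays did not overlap, but the gap was narrow, and the log2 fold change was 0.094 ± 0.045 (adjusted p = 0.867). Dnah9, an outer arm heavy chain of airway cilia, gave 0.10 ± 0.059, and Ccdc114, a protein that docks the outer arm on the microtubule, gave 0.12 ± 0.067. Dnah11, an outer arm heavy chain of the proximal cilium, had the estimate nearest 0 of these genes, 0.010 ± 0.11. Its arrays spread from 50.7 to 65.2, and its sign turned with quantile normalization and median centring.

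Among the 9 inner dynein arm genes, 6 had positive and 3 negative estimates, all with overlapping groups. Dnah12, a heavy chain of the inner arms, had the highest estimate of all members: 92.0, 110.3 and 90.0 in wild type and 96.7, 102.7 and 135.4 in Scnn1b-Tg. Only Scnn1b-Tg replicate 3 was above the wild-type range. The log2 fold change was 0.19 ± 0.14 (SE; adjusted p = 0.929), and it ran from 0.039 without that array to 0.28 without Scnn1b-Tg replicate 1. Dnah7b was at 30.1, 30.8 and 27.4 in wild type and 37.5, 29.98 and 30.9 in Scnn1b-Tg, so that Scnn1b-Tg replicate 1 stood well above the other arrays. Its log2 fold change of 0.15 ± 0.094 (adjusted p = 0.904) came to 0.051 without that array and 0.21 without Scnn1b-Tg replicate 2. The paralogue Dnah7a gave 0.040 ± 0.061, and 2 further probe sets, annotated to Dnah7a, Dnah7b and Dnah7c together and outside the rule for that reason, gave -0.099 and 0.057. These near-identical copies may share hybridisation signal, so their separate values are uncertain. The other heavy chains gave 0.045 ± 0.071 for Dnah1, -0.041 ± 0.048 for Dnah2, 0.048 ± 0.086 for Dnah3, -0.072 ± 0.094 for Dnah6 and 0.082 ± 0.062 for Dnah10. Dnali1, a light intermediate chain of the inner arms, spread from 56.4 to 72.9 within wild type alone and gave -0.030 ± 0.12.

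Of 4 genes that space and regulate the dynein arms, 1 had a positive and 3 a negative estimate, all with overlapping groups. Ccdc39, which with Ccdc40 forms the molecular ruler along the axoneme, was at 47.4, 58.1 and 65.5 in wild type and 52.0, 50.4 and 54.0 in Scnn1b-Tg. The transgenic arrays lay inside the wild-type range. Its log2 fold change was -0.12 ± 0.11 (SE; adjusted p = 0.951), and it ran from -0.010 without wild type replicate 3 to -0.24 without wild type replicate 1 (adjusted p = 0.455). Ccdc40 gave -0.039 ± 0.055. Drc1, a core subunit of the nexin-dynein regulatory complex, gave 0.069 ± 0.081, and the ciliary coiled-coil protein Ccdc113 gave -0.022 ± 0.096. Of the 3 radial spoke head genes, Rsph1 (0.074 ± 0.077) and Rsph9 (0.074 ± 0.094) were above 0 and Rsph4a (-0.029 ± 0.062) below.

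In the central pair group, 4 of 5 estimates were positive. Spag6, a central pair protein, had the smallest p-value of all members: 30.3, 28.8 and 27.5 in wild type and 31.2, 33.1 and 31.3 in Scnn1b-Tg. The 2 groups did not overlap, the lowest transgenic array lying just above the highest wild-type array. Its estimate in limma was 0.14 ± 0.053 (SE, log2), the adjusted p was 0.764 and the unadjusted one 0.0299. This probe set is among the dimmest 33.3% and is annotated to the copy on chromosome 2. The copy on chromosome 16, now named Spag6l and for which RefSeq lists Spag6 as an older name, was brighter and overlapped between the groups: 61.0, 68.6 and 64.2 in wild type and 62.5, 67.9 and 70.3 in Scnn1b-Tg. Its log2 fold change was 0.050 ± 0.066 (adjusted p = 0.980). Hydin, which anchors a projection of the central pair and whose mutation causes hydrocephalus in mice, gave 0.069 ± 0.085. Spag16 (0.027 ± 0.044), Spag17 (0.012 ± 0.055, negative after median centring) and Spef2 (-0.066 ± 0.068), which are also central pair proteins, did not pass either.

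Of the 3 tektins, filament proteins of the ciliary microtubules, Tekt1 (-0.094 ± 0.062) and Tekt2 were below 0 and Tekt4 (0.049 ± 0.052) above. Tekt2 was at 37.6, 36.8 and 35.9 in wild type and 32.8, 33.5 and 36.4 in Scnn1b-Tg. Scnn1b-Tg replicate 3 fell within the wild-type range, and the log2 fold change was -0.10 ± 0.054 (SE; adjusted p = 0.873). The dynein arm assembly factors Lrrc6 (-0.037 ± 0.093) and Zmynd10 (-0.043 ± 0.069), which act in the cytoplasm before the arms enter the cilium, were close to 0. Tppp3, a tubulin polymerisation protein of ciliated and some mesenchymal cells, had the lowest estimate of all members: 219.4, 245.2 and 294.4 in wild type and 204.1, 204.2 and 243.7 in Scnn1b-Tg. Scnn1b-Tg replicate 3 overlapped wild type, and the log2 fold change of -0.21 ± 0.12 (adjusted p = 0.893) came to -0.099 without wild type replicate 3 and reached -0.31 when replicate 1 was left out instead. Ak7, an axonemal adenylate kinase (0.020 ± 0.059), and Dynlrb2, a dynein light chain (0.0066 ± 0.090), had estimates near 0 whose sign turned with quantile normalization and median centring.

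Some of the long genes were covered by many probe sets, which gives a further view of the same RNA on the same arrays. Dnah3 had 33 single-symbol probe sets, with log2 fold changes from -0.13 to 0.30 and a median of 0.061, 27 of them positive. The brightest one, used above, gave 0.048. The Scnn1b-Tg arrays were above wild type in 2 of the 33 (against 6.12% of all 21780 probe sets), and 3 were higher at an unadjusted p under 0.05 (against 3.81%). They come from the same RNA of 1 gene, and the lowest of their p-values adjusted over all probe sets was 0.720. Spef2 had 22 probe sets, from -0.13 to 0.17 with a median of -0.019, of which 14 were negative and 7 had a mean intensity under 30. Dnah10 had 5 (from -0.076 to 0.21) and Dnah6 had 3 (from -0.072 to 0.12), both with either sign. Transgenic arrays were above wild type in 1 probe set of Spef2 and 1 of Dnah10, and below in 0. That of Dnah10 had an unadjusted p of 0.041 in limma (adjusted p = 0.811), and 0 probe sets of Spef2 had one under 0.05. For Dnah12 and Dnah7b, with 2 probe sets each, the dimmer one gave the smaller change. It was 0.056 for Dnah12, against 0.19 on the brightest, and 0.012 for Dnah7b, against 0.15. With probe sets averaged, the values were 0.14 for Dnah12 and 0.091 for Dnah7b. Averaging the probe sets of Dnah6 turned its value from -0.072 to 0.023. Probe sets of 1 gene are not replicates, and none of those of these genes passed the adjusted threshold in this limma fit.

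**Figure D2:**
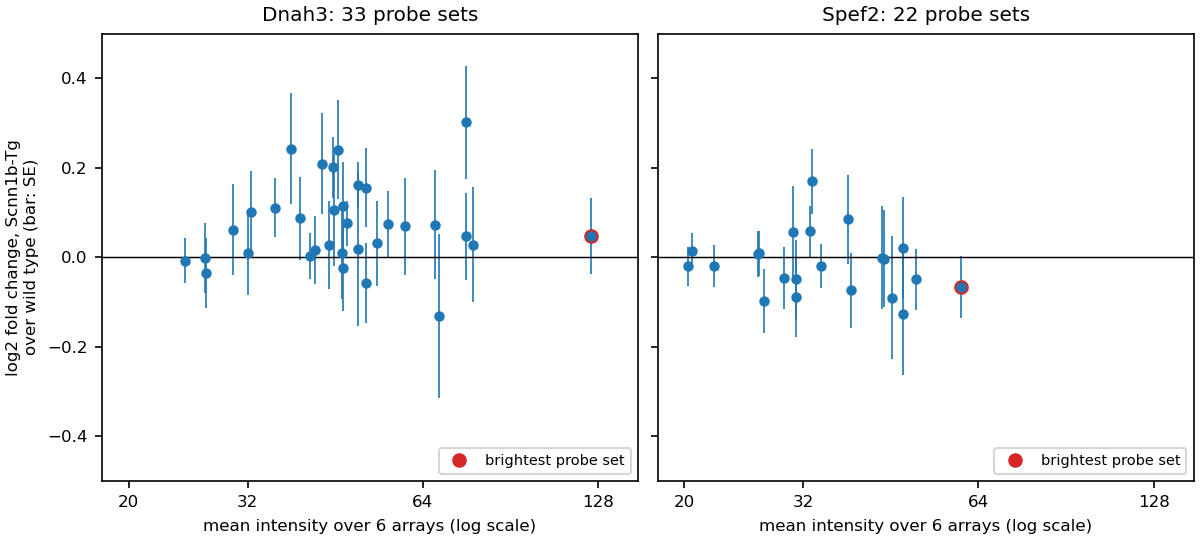
Log2 fold change (Scnn1b-Tg over wild type, bars are SE) against mean intensity for the 33 probe sets of Dnah3 and the 22 of Spef2, with the brightest probe set of each in red. Values of either sign occur for both genes, from -0.13 to 0.30 for Dnah3 and from -0.13 to 0.17 for Spef2.

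Array by array, low levels of the set were found in both genotypes. Taking each gene's log2 deviation from its own mean, the median over the 38 members was -0.059, 0.030 and 0.0065 on wild type replicates 1, 2 and 3, and -0.052, 0.0083 and 0.055 on Scnn1b-Tg replicates 1, 2 and 3. The lowest arrays thus were 1 of each genotype, and the ranges of the genotypes overlapped. Wild type replicate 1 was above the gene mean for 8 members and was the lowest array for 11 (28.9%, where it was lowest for 16.9% of all genes). Scnn1b-Tg replicate 1 was above the mean for 11 and lowest for 10 (26.3%, against 13.9% of all genes). Scnn1b-Tg replicate 3 was above the mean for 29 and highest for 11 (28.9%, where it was highest for 22.2% of all genes). The summed intensity of the 38 genes was 2019 to 2210 in wild type and 2029 to 2255 in Scnn1b-Tg.

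**Figure D3:**
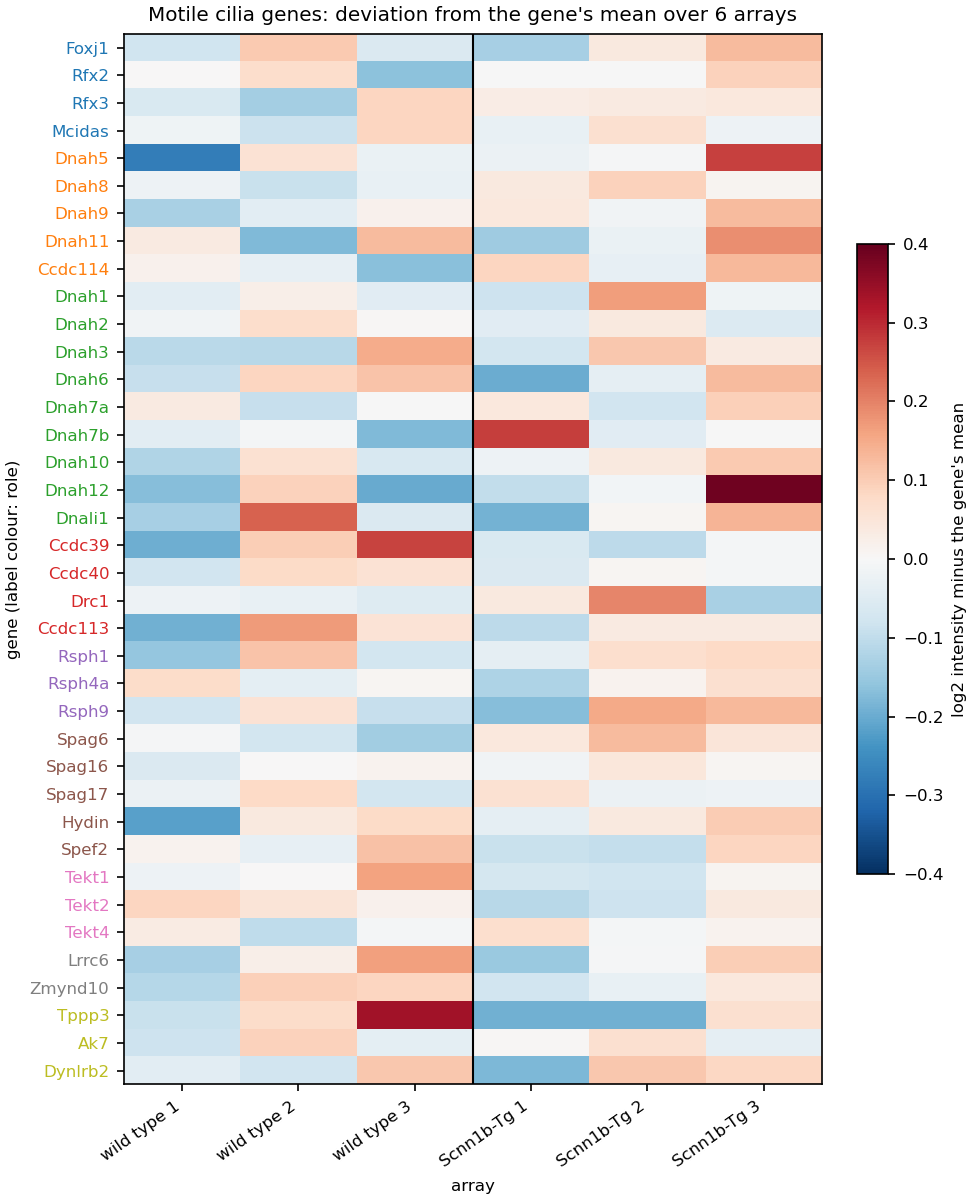
Log2 intensity minus the gene's mean over the 6 arrays (colour scale) for the 38 genes (rows, label colour by role) and the 6 arrays (columns, wild type left of the line). Wild type replicate 1 and Scnn1b-Tg replicate 1 are mostly blue (8 and 11 members above their mean) and Scnn1b-Tg replicate 3 mostly red (29 above).

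Ciliary genes outside the 38 were read from the same fit. Of 59 other axonemal and ciliary assembly genes, 35 had positive and 24 negative estimates, with a median of 0.013, 0 were called, and 3 had an unadjusted p under 0.05 (2 higher, 3.39% against 3.96% of all genes, and 1 lower, 1.69% against 2.05%). The Scnn1b-Tg arrays were above wild type for 2 (3.39%, against 6.26% of all genes) and below for 4 (6.78%, against 4.41%). The 3 of unadjusted p under 0.05 included Drc7, of the nexin-dynein regulatory complex (0.12 ± 0.043, SE), and Cfap298 (-0.12 ± 0.048), with adjusted p-values of 0.757 and 0.778, while the extremes were Nme7 (0.21 ± 0.10) and Dnal1 (-0.15 ± 0.069). Of 15 genes of multiciliogenesis and centriole amplification, 7 were positive and 8 negative (median -0.0048, 0 called). Their smallest p-value belonged to Deup1, which builds the deuterosome on which centrioles multiply: 40.4, 47.0 and 41.4 in wild type and 35.3, 36.3 and 40.3 in Scnn1b-Tg. All 3 transgenic arrays were below wild type by a narrow gap, and the log2 fold change was -0.20 ± 0.078 (adjusted p = 0.773). Gmnc, which acts with Mcidas early in the programme, gave -0.099 ± 0.055 and Stil, a centriole assembly factor, gave 0.11 ± 0.098. Of 30 genes of intraflagellar transport and the BBSome, which carry cargo in primary as well as motile cilia, 13 were positive and 17 negative (median -0.0093, 0 called). The 2 smallest p-values there were those of Bbs9 (-0.20 ± 0.059, adjusted p = 0.662) and Ift22 (-0.14 ± 0.053, adjusted p = 0.764), the 2 with an unadjusted p under 0.05 (6.67%, against 2.05% of all genes), and the highest value was that of Kif17 (0.095 ± 0.080). The Scnn1b-Tg arrays were below wild type for 4 of these 30 genes (13.3%, against 4.41% of all genes) and above for 0.

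Marker genes of the cells in the sample were set beside these values. Of 12 ciliated cell markers outside the members, 7 had positive and 5 negative estimates, the median was 0.018, and the summed intensity was 1446 to 1709 in wild type and 1484 to 1537 in Scnn1b-Tg. The smallest p-values were those of Cdhr4, a cadherin-related protein, at 0.32 ± 0.078 (SE; adjusted p = 0.464) and Ccdc78, of the deuterosome, at 0.17 ± 0.067 (adjusted p = 0.792), each with all transgenic arrays above wild type. These 2 were 16.7% of the 12 markers, against 6.26% of all genes, and 0 markers were below wild type (against 4.41%). They were also the 2 higher at an unadjusted p under 0.05 in limma (16.7%, against 3.96% of all genes). For club cells, the secretory neighbours of ciliated cells, 11 of 14 markers had negative estimates (median -0.17, 0 called), and their summed intensity did not overlap: 12561 to 15772 in wild type and 11452 to 12280 in Scnn1b-Tg. Of single club cell markers, 28.6% had all transgenic arrays below wild type (against 4.41% of all genes) and 7.14% above (against 6.26%). Scgb1a1 gave -0.31 ± 0.069 (adjusted p = 0.398) and Cyp2f2 -0.48 ± 0.080 (adjusted p = 0.205), whereas the immunoglobulin receptor Pigr gave 0.63 ± 0.13 (adjusted p = 0.376). The difference between the club cell and ciliary lists was not tested.

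For each of the following lists the 2 genes of smallest p-value are named, which need not have the largest change. Of the 9 goblet cell markers 8 were above 0 (median 0.066), with the smallest p-values for the mucins Muc5ac (0.37 ± 0.088, adjusted p = 0.455) and Muc5b (0.57 ± 0.20, adjusted p = 0.757), and summed to 557 to 1338 in wild type and 1181 to 1591 in Scnn1b-Tg. Of the 7 airway basal cell markers 6 were above 0 (median 0.064), with sums of 246 to 251 and 249 to 263 and the smallest p-values for Krt15 (0.085 ± 0.055) and Ngfr (0.11 ± 0.093). The 3 neuroendocrine markers had a median of 0.087 and sums that did not overlap, 104.9 to 106.7 and 110.04 to 114.5, with values for Chga (0.12 ± 0.068) and Syp (0.087 ± 0.063). Sums overlapped for alveolar type 2 markers (7 of 9 above 0, median 0.0088), with values for Lamp3 (-0.19 ± 0.12) and Sftpa1 (0.14 ± 0.095), and for type 1 markers (2 of 6, median -0.0054), with values for Pdpn (0.13 ± 0.075) and Rtkn2 (-0.038 ± 0.073). They also overlapped for smooth muscle (2 of 5, median -0.0029), with values for Cnn1 (-0.20 ± 0.19) and Des (-0.099 ± 0.12), and for cartilage (2 of 5, median -0.025), with values for Col2a1 (0.086 ± 0.076) and Comp (-0.077 ± 0.074). All 5 endothelial markers were below 0 (median -0.10), with values for Tek (-0.10 ± 0.052) and Kdr (-0.12 ± 0.061), with sums of 4782 to 4901 and 4361 to 4838. All 7 macrophage markers were above 0 (median 0.39), with sums of 1313 to 1722 in wild type and 2691 to 3465 in Scnn1b-Tg, and of 562 to 578 and 717 to 811 without Chil3. The smallest p-values were those of Cd68 (0.33 ± 0.044, adjusted p = 0.139) and Chil3 (1.34 ± 0.19, adjusted p = 0.146). Of the 6 cardiac muscle markers 5 were below 0 (median -0.36), with sums of 1150.3 to 1434 and 831 to 1118, with values for Myl4 (-0.29 ± 0.068) and Myh6 (-0.42 ± 0.11). Among macrophage markers, 85.7% had all transgenic arrays above wild type (against 6.26% of all genes) and 0 below. Among cardiac muscle markers, 66.7% had them below (against 4.41%) and 0 above. None of the marker genes was at 0 and 0 were called. In the alternatives described with the processing, Chil3 was called in 4 (adjusted p from 0.0099 to 0.0290) and Itgam, also a macrophage marker, in 3 (0.0224 to 0.0379). The part of these markers in the values of the ciliary genes was not tested. On wild type replicate 1, where the ciliary members were low, the median deviation was -0.11 for ciliated cell markers outside the members, -0.11 for alveolar type 2, -0.093 for alveolar type 1, -0.063 for club cell and -0.22 for macrophage markers. On Scnn1b-Tg replicate 1, the other low array, these were -0.018, -0.035, -0.064, -0.18 and 0.35 in the same order. Such deviations are from the mean of all 6 arrays, so a genotype difference is part of them. Macrophage markers were at -0.22 and -0.18 on wild type replicates 2 and 3, and at 0.18 and 0.21 on Scnn1b-Tg replicates 2 and 3. Club cell markers were there at 0.23 and 0.11 in wild type, and at -0.057 on both Scnn1b-Tg arrays.

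**Figure D4:**
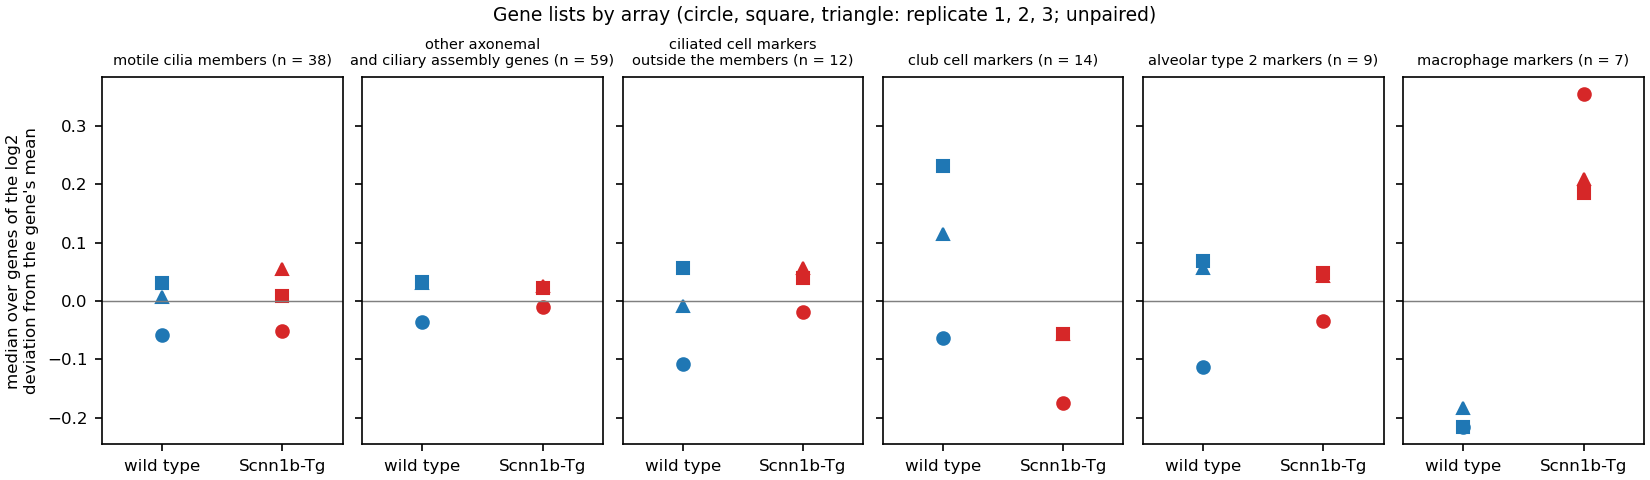
Median over each list of the log2 deviation from the gene's mean, 1 point per array (circle, square and triangle for replicates 1, 2 and 3, which are not paired), for wild type in blue and Scnn1b-Tg in red. The members, the other axonemal genes and the outside ciliated cell markers overlap between genotypes and stay between -0.11 and 0.057, club cell markers range from -0.18 to 0.23, and macrophage markers are apart, at -0.22 to -0.18 in wild type and 0.18 to 0.35 in Scnn1b-Tg.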

How the data were processed

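The members and lists were chosen with earlier results of these data known. Each array's deposited table holds linear intensities by probe set, for which the submitters' processing notes name RMA (settings not given in the sources used here). Of 28815 probe sets, the platform annotation gave 21780 exactly 1 symbol, 1605 several and 5430 none. The brightest probe set per gene over the 6 arrays was kept, leaving 19935 genes. The log2 values entered a linear model with genotype as the only term (limma 3.58.1, lmFit and eBayes, R 4.3.3), with 4 residual and 6.99 moderated degrees of freedom. Tests were two-sided, and Benjamini-Hochberg adjustment covered all genes, with a threshold of 0.05. The fit was tested on simulated data whose changes were all larger than the estimate of any member, so that test does not cover changes as small as theirs. Errors are the SE of a log2 fold change or the SD of 3 arrays, whose number limits the precision. Every member was named. Arrays were listed for Foxj1, members with an unadjusted p under 0.05 or groups that do not overlap, and the 3 highest and lowest estimates; Rfx3, Spag6l, Deup1 and Itgam were added after their values were seen. Of each list the 2 smallest p-values were named, and the extremes of the pathway lists; Scgb1a1 is named as the club cell marker. Some genes of the pathway and marker lists were not analysed here. The results were recomputed with median centring, with quantile normalization, with probe sets averaged, with 16 subtracted, without the dimmest 33.3% of genes, with a robust variance trend, with a replicate block, and without each array in turn.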

Additional observations from a re-analysis of the deposited data

How the results depend on the processing

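In all 13 alternatives 0 members were called, and the lowest adjusted p of any member was 0.455 (Ccdc39). The median log2 fold change of the members was -0.0010 after median centring and otherwise between 0.0047 and 0.054. Over all genes the number called was 39 with the dimmest 33.3% of genes left out, 36 with a trend and robust variance, 23 with 16 subtracted, 3 with the replicate block, and 0 to 5 with single arrays left out (5 when Scnn1b-Tg replicate 3 was dropped, and 0 when wild type replicate 3 was, where Scnn1b had an adjusted p of 0.0559). The members with an unadjusted p under 0.05 numbered 0 without the dimmest genes, which drops Spag6, 2 with the replicate block, and 0 to 4 with single arrays left out. Shares of all genes at that p-value are not given here for these alternatives, so the counts cannot be read as high or low. Members without overlap numbered 3 with median centring (7.89%, against 11.8% of all genes), 1 without the dimmest genes (3.23%, against 11.3%) and 3 to 8 with single arrays left out (7.89% to 21.1%, against 18.2% to 24.3% of all genes), where fewer arrays are compared. Same-numbered arrays were not paired by the labels, and their deviations correlated at 0.026, 0.028 and 0.039, though each array correlated best with its own number. The replicate block changed no call of a member.

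With single arrays left out, only Dnah8, Spag6 and Tekt2 stayed within 1.5 times of their value; the other 35 moved by more or turned, and all values lay between -0.31 and 0.28. Signs turned for 15 of 38 members in some alternative, and the cause was not tested. Averaged probe sets gave 0.023 for Dnah6. Median centring gave -0.0038 for Foxj1, -0.015 for Mcidas, -0.015 for Dnah11, -0.014 for Spag17, -0.0058 for Ak7 and -0.019 for Dynlrb2. Quantile normalization gave -0.015 for Foxj1, -0.0060 for Mcidas, -0.023 for Dnah11, -0.014 for Ak7 and -0.033 for Dynlrb2. With single arrays left out the values ran from -0.15 to 0.0088 for Dnah6, -0.10 to 0.080 for Dnali1, -0.12 to 0.057 for Ccdc113, -0.068 to 0.025 for Rsph4a, -0.021 to 0.055 for Spag17 and -0.11 to 0.037 for Lrrc6. They ran from -0.029 to 0.057 for Mcidas, -0.028 to 0.097 for Dnah1, -0.010 to 0.15 for Drc1, -0.017 to 0.071 for Ak7, -0.046 to 0.098 for Dynlrb2, -0.036 to 0.093 for Foxj1, -0.080 to 0.084 for Dnah11, -0.022 to 0.12 for Hydin and -0.0067 to 0.11 for Rfx2. The other 23 members kept their sign in all 13 alternatives that gave a value; the 7 among the dimmest genes have none where those were left out.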
